A study of Mus musculus with 4 samples.

Results

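Il10, the gene of the anti-inflammatory cytokine IL-10, was followed together with Maf, Bhlhe40, Ahr and Batf, 4 transcription factor genes that have been linked to its control. These 5 genes were chosen by name, out of 32285 features counted in single cells from the spleens of mice with B-cell lymphoma. The study put 2 mice side by side, 1 labelled pBIC and 1 labelled pBIC10, both female. The labels do not spell out the alleles of either genotype, what all the mice share beyond the lymphoma, or their ages, so nothing is assumed here about how pBIC10 differs from pBIC. In each mouse, the lymphoma carries GFP, and viable cells with and without GFP were sorted and combined at 20% and 80%. The mixture was run on a droplet platform aimed at about 10000 cells, which gave 1 gene expression library and 1 T-cell receptor library per mouse. Each genotype is therefore 1 mouse and 1 library, cells are not replicates, and no difference between the genotypes was tested. Intervals in brackets are 95% intervals that cover counting error only.

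IL-10 is secreted by many immune cells and restrains macrophages, dendritic cells and T-cell help. In T cells its gene is switched on by several factors acting together rather than by a single lineage regulator, and B cells can make it as well. Maf (ENSMUSG00000055435) encodes c-MAF, a basic leucine zipper activator that binds the Il10 (ENSMUSG00000016529) promoter in several T-cell lineages. Bhlhe40 (ENSMUSG00000030103) encodes a basic helix-loop-helix repressor known to hold Il10 down in T cells. Ahr (ENSMUSG00000019256) encodes the aryl hydrocarbon receptor, a ligand-activated factor that partners with c-MAF in regulatory T cells. Batf (ENSMUSG00000034266) encodes an AP-1 family protein that pairs with JUN and IRF factors in activated lymphocytes.

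Cells were assigned to classes by raw counts of unique molecular identifiers (UMIs), each UMI standing for 1 captured transcript. A T cell needed a receptor beta chain in the matching receptor library and at least 1 Cd3e UMI. A B cell needed at least 3 UMIs of Cd79a and Cd79b together and no Cd3e. A macrophage needed at least 1 Csf1r and 5 Lyz2 UMIs, and a neutrophil at least 1 Csf3r and 10 S100a8 UMIs. The pBIC library gave 7790 T, 2829 B, 789 macrophage and 261 neutrophil cells among 17375 used. The pBIC10 library gave 3403, 2357, 2561 and 1079 among 14271. Median depth ran from 3082 UMIs in pBIC10 neutrophils to 15906 in pBIC10 B cells. A class level is given as UMIs of a gene per 1000000 UMIs of the class (CPM). The markers of each class were found in it, with summed levels of 3863 and 2746 CPM for 6 further T-cell genes in T cells and 1647 and 611 CPM for 6 further B-cell genes in B cells of pBIC and pBIC10. Macrophage cells of pBIC also carried 363 CPM of those T-cell genes, against 104 CPM in pBIC10, and S100a9, a neutrophil gene, stood at 1515 and 2596 CPM there. Of all cells used, 216 in pBIC and 433 in pBIC10 met more than 1 gate, and 712 cell barcodes occurred in both libraries. Fewer transcripts per cell and fewer positive cells cannot be told apart in a class level alone, so the share of positive cells is given as well.

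Il10 was found in T cells of both libraries and, outside them, in B cells of pBIC. In T cells it stood at 42.8 CPM (41.3 to 44.4) in pBIC against 28.3 CPM (26.6 to 30.1) in pBIC10. In B cells it stood at 30.9 CPM (29.2 to 32.6) in pBIC, from 1262 UMIs, and at 0.452 CPM (0.280 to 0.690) in pBIC10, from 21 UMIs. The pBIC10 B-cell level lay within the interval of the erythroid cells, a class that should lack the gene, where Il10 was at 0.609 CPM (0.0738 to 2.20) in pBIC against 0.910 CPM (0.0230 to 5.07) in pBIC10. Macrophages held 7.22 CPM (5.52 to 9.27) in pBIC against 1.55 CPM (1.15 to 2.04) in pBIC10, and neutrophils 4.37 CPM (1.76 to 9.005) and 3.77 CPM (2.39 to 5.65), where T-cell RNA in proportion to Cd3e would carry 4.74 CPM and 1.92 CPM. The order was thus T, B, macrophage, neutrophil and erythroid in pBIC, where macrophage and neutrophil intervals overlapped, as did those of neutrophil and erythroid cells. In pBIC10 it was T, neutrophil, macrophage, erythroid and B, where the erythroid interval overlapped those of neutrophils, macrophages and B cells. The pBIC10 neutrophil place rested on few cells, since 3 cells with 4 to 9 UMIs held 17 of the 23 neutrophil Il10 UMIs. In that library 23 cells met both the T and the neutrophil gate, and their part in the neutrophil value was not tested.

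The B-cell gap was the widest, with Il10 68.4-fold (44.5 to 111) higher in pBIC. All 21 pBIC10 B cells with Il10 held exactly 1 UMI of it, whereas among pBIC B cells 416 held 1 UMI, 161 held 2, 73 held 3, 55 held 4 to 9 and 3 held 10 or more. B cells with at least 10 UMIs of the leading kappa light-chain segment of their library held 32.4 CPM and 0.278 CPM. The segment was Igkv8-30 in pBIC and Igkv3-1 in pBIC10, and the set was chosen after the values were seen. It took in 2064 of 2829 B cells in pBIC and 1949 of 2357 in pBIC10, with 1181 and 12 Il10 UMIs. Most gated B cells of each library thus carried 1 segment, which was not the same in the 2 mice. The remaining B cells held 18.2 CPM (14.5 to 22.7) and 2.68 CPM (1.23 to 5.08), a 6.81-fold gap. A mean over cells that gives each cell equal weight put the gap in all B cells at 27.1-fold.

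In T cells Il10 was 1.51-fold (1.41 to 1.62) higher in pBIC. The share of positive T cells was nearly the same, 14.4% in pBIC and 13.5% in pBIC10 at medians of 6525 and 7674 UMIs. When every cell was thinned at random to 2000 UMIs, the shares were 5.65% (5.15 to 6.19) and 4.55% (3.87 to 5.31), against 0.633% of pBIC erythroid cells and 0 of 59 pBIC10 erythroid cells, which allows up to 5.08%. The 2 T-cell intervals overlapped. The erythroid medians were 16576 and 3932 UMIs before thinning. The wider gap in level came with a few cells of very high content. In pBIC, 51 T cells with 10 or more Il10 UMIs held 39.5% of the T-cell Il10 UMIs and the highest held 94, while in pBIC10 17 such cells held 22.5% and the highest held 21. Leaving out the 1% of T cells with most Il10 in each library brought the gap to 1.25-fold, and a mean over cells to 1.27-fold. Scaling with TMM factors or with median-of-ratios size factors gave 1.42-fold and 1.41-fold, so the gap did not hold at 1.5-fold under those settings.

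Within T cells, Il10 was not confined to one subset. CD8 cells (Cd8a or Cd8b1 without Cd4) held 43.2 CPM in pBIC against 28.6 CPM in pBIC10. CD4 cells without Foxp3 held 51.3 CPM (46.4 to 56.7) and 25.1 CPM (18.9 to 32.6), and cells with Foxp3, the gene of the regulatory T-cell factor, 34.2 CPM (22.5 to 49.7) and 19.7 CPM (14.0 to 26.9). Each subset was thus higher in pBIC, with folds of 1.51 (1.40 to 1.63), 2.05 (1.54 to 2.77) and 1.74 (1.02 to 2.91). The Foxp3 fold rested on 27 and 39 UMIs, and the level intervals of the Foxp3 cells overlapped. The pBIC10 CD4 set also carried mast-cell and basophil markers at a summed 148 CPM, all 3 of which were at 0 in pBIC CD4 cells, and their part in the result was not tested.

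The macrophage value was read with and without cells that carried lymphocyte UMIs. Cd3e stood at 143 CPM in pBIC against 34.4 CPM in pBIC10 macrophage cells. Macrophage cells without any Cd3e, Cd79a or Cd79b UMI and in no other gate, a set chosen after the values were seen, numbered 243 and 1391 and held 4.24 CPM (2.03 to 7.80) and 0.439 CPM (0.177 to 0.905) of Il10, from 10 and 7 UMIs. Their summed T-cell genes were at 36.04 and 23.7 CPM. The gap was 4.65-fold (3.15 to 6.91) in the whole gate and 9.66-fold in the restricted set, the latter a log2 ratio of -3.27 (-4.90 to -1.73). In the whole gate, T-cell RNA in proportion to Cd3e would carry 4.20 CPM of Il10 in pBIC and 0.893 CPM in pBIC10. The part of T-cell RNA in the macrophage Il10 values was not tested. Macrophage cells with Ace or Treml4, genes of patrolling monocytes, held 6.81 CPM (4.87 to 9.27) and 1.57 CPM (0.981 to 2.37), and the other macrophage cells 8.14 CPM (5.04 to 12.5) and 1.54 CPM (1.02 to 2.22), so that neither portion stood apart from the other beyond its interval.

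Maf, the activator, followed T cells in both libraries and was lower in all 4 gated classes of pBIC10. Its T-cell level was 202 CPM (199 to 206) in pBIC against 56.6 CPM (54.2 to 59.0) in pBIC10, a 3.57-fold gap (3.41 to 3.74). The CD8, CD4 and Foxp3 sets gave 187 against 53.0 CPM, 299 against 92.1 CPM and 203 against 44.9 CPM. After thinning, 32.6% (31.6 to 33.7) of pBIC T cells and 15.9% (14.7 to 17.2) of pBIC10 T cells held a Maf UMI, so both the share of positive cells and the level were lower in pBIC10. B cells held 2.98 CPM and 0.753 CPM, values that overlapped those of erythroid cells in both libraries (2.13 and 1.82 CPM). Macrophages held 41.4 CPM and 13.8 CPM, and 19.9 CPM (14.6 to 26.5) and 12.7 CPM (11.04 to 14.6) in the restricted set without T-cell or B-cell UMIs, whose intervals met closely without overlapping. Neutrophils held 22.5 CPM and 8.51 CPM. T-cell RNA in the proportion of neutrophil to T-cell Cd3e would carry 22.4 CPM and 3.84 CPM of Maf, so the pBIC value was not above that amount, and the T-cell markers of neutrophils summed to 509 CPM and 288 CPM.

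Bhlhe40, the repressor, ran the other way in lymphocytes. T cells held 266 CPM (263 to 270) in pBIC against 417 CPM (410 to 423) in pBIC10, a 1.56-fold (1.53 to 1.60) higher level in pBIC10. All 3 T-cell subsets shared that direction, with 1.54-fold in CD8, 1.88-fold in CD4 and 1.81-fold in Foxp3 cells. B cells held 20.2 CPM and 52.0 CPM, 2.58-fold higher in pBIC10, and neutrophils 75.5 CPM and 168 CPM, 2.22-fold higher. Neutrophils also carried macrophage markers, at a summed 522 CPM in pBIC and 1077 CPM in pBIC10, and their part was not tested. Macrophages were at 187 CPM and 172 CPM, a difference whose direction turned with the scaling.

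Ahr in macrophages stood at 40.0 CPM (35.8 to 44.5) in pBIC, where the B-cell interval overlapped it, and at 46.6 CPM (44.3 to 49.1) in pBIC10, above the other classes. It was lowest, among the gated classes, in T cells, at 6.89 CPM and 5.03 CPM, and the latter overlapped the erythroid level of 4.55 CPM (1.48 to 10.6). B cells held 37.1 CPM and 21.8 CPM, 1.70-fold (1.57 to 1.84) higher in pBIC, and 1.39-fold under either alternative scaling. Neutrophils held 19.4 CPM (13.2 to 27.5) and 29.6 CPM (25.5 to 34.3), intervals that overlapped, and the ratio was 1.53-fold (1.04 to 2.32) higher in pBIC10. The part of macrophage RNA in these neutrophil values was not tested.

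Batf, the AP-1 member, differed between the genotypes mainly in B cells. B cells held 26.7 CPM (25.2 to 28.3) in pBIC against 190 CPM (186 to 194) in pBIC10, a 7.13-fold (6.69 to 7.60) higher level in pBIC10. The thinned shares of positive B cells were 5.19% and 27.0%. In pBIC10 the B-cell level thereby equalled that of T cells, 194 CPM, within counting error, while in pBIC the T-cell level of 181 CPM stood far above it. Macrophages held 56.4 CPM and 40.8 CPM and neutrophils 56.8 CPM and 62.6 CPM.

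Read against all genes, these gaps were not rare. In T cells 3 of the 5 genes differed at least 1.5-fold, Il10 and Maf higher in pBIC and Bhlhe40 higher in pBIC10, beside 40.5% of 14265 genes with at least 20 UMIs. In B cells all 5 did, beside 56.9% of genes. In macrophages Il10 and Maf did, beside 39.7%, and in neutrophils Maf, Bhlhe40 and Ahr did, beside 34.7%. The counts alone are therefore no result about these genes. The median log2 ratio of pBIC10 to pBIC over all genes was -0.16 in T cells, -0.32 in B cells, -0.28 in macrophages and 0.01 in neutrophils, against -1.84, -1.99, -1.59 and -1.40 for Maf. The B-cell Maf levels overlapped those of erythroid cells. T-cell RNA in proportion to Cd3e would carry 19.8 CPM of Maf in pBIC macrophages and 22.4 CPM in pBIC neutrophils, and 1.79 CPM and 3.84 CPM in pBIC10. The part of T-cell RNA in the Maf ratios of these 2 classes was not tested.

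Other genes of the same pathways were read from lists by their counts. Among 15 further factors linked to Il10, 7 were at least 1.5-fold higher in pBIC T cells and 1 in pBIC10 T cells, with a median log2 ratio of -0.52, beside 24% and 16.5% of all genes. Ikzf3, which encodes Aiolos, stood at 221 CPM in pBIC against 94.1 CPM in pBIC10, Ets1 at 409 CPM and 200.2 CPM, and Nfil3 at 15.1 CPM and 25.6 CPM. Of 5 receptors upstream, 2 were higher in each library. Il27ra, the receptor chain for IL-27, a cytokine that induces Maf and Il10, stood at 155 CPM and 37.8 CPM in T cells, and Il21r at 225 CPM and 125 CPM. Il2ra, the high-affinity IL-2 receptor chain, stood at 9.23 CPM and 58.6 CPM, and Il12rb2 at 3.27 CPM and 8.28 CPM.

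Of 6 relatives and partners of Batf, 2 were higher in pBIC10 T cells and 0 in pBIC T cells, beside 16.5% and 24% of all genes. Batf3 stood at 3.26 CPM in pBIC against 37.2 CPM in pBIC10, an 11.4-fold gap, and Irf8, a partner factor, at 67.9 CPM and 107 CPM. The same list gave 2 of 6 higher in pBIC10 B cells, Irf8 at 150 CPM and 714 CPM and Jund at 270.1 CPM and 511 CPM, beside 18.4% of all genes. Maff, a small MAF relative, stood at 1.04 CPM in pBIC T cells and 1.80 CPM in pBIC10 T cells, opposite to Maf itself. Mafk, another small MAF protein without an activation domain, stood at 8.34 CPM in pBIC B cells and 80.3 CPM in pBIC10 B cells. Bhlhe41, the closest relative of Bhlhe40, differed less than 1.5-fold in all 4 classes.

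Of 6 genes of the Ahr partner and target list, 3 had enough UMIs in T cells and 1 of them, Tiparp, a classical target of the receptor, was higher in pBIC, at 14.5 CPM against 7.96 CPM. In B cells Tiparp stood at 25.3 CPM in pBIC against 6.75 CPM in pBIC10, and Arnt, the dimer partner, at 34.1 CPM and 19.2 CPM, so that 2 of 3 were higher in pBIC, the direction of Ahr there, beside 38.5% of all genes. The surface genes reported with Il10 in T cells gave 0 of 5 past 1.5-fold in T cells. Of 7 other cytokines, 2 were higher in each library's T cells. The all-gene shares of 24% higher in pBIC and 16.5% higher in pBIC10 stand beside these T-cell counts too. Ifng stood at 412 CPM in pBIC against 152 CPM in pBIC10, Il2 at 1.15 CPM and 0.265 CPM, Csf2 at 0.356 CPM and 3.94 CPM and Il4 at 0.313 CPM and 1.16 CPM. Markers of mast cells and basophils, cells known for making Il4, were at a summed 0.0997 CPM in pBIC T cells and 10.7 CPM in pBIC10 T cells, and their part in the Il4 value was not tested.

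In B cells the remaining lists were mixed. Of 14 further factors with enough UMIs, 4 were higher in pBIC10 and 4 in pBIC, with a median log2 ratio of -0.13 against -0.32 over all genes. Over all genes 18.4% were higher in pBIC10 B cells and 38.5% in pBIC B cells, and the counts of these short lists are read against that. Ets1 went from 56.2 CPM in pBIC to 6.80 CPM in pBIC10, and Tbx21, the T-bet gene, from 0.710 CPM to 6.06 CPM. Of 5 receptors 3 were higher in pBIC, among them Il27ra at 6.83 CPM beside 0.581 CPM, and the list's median log2 ratio was -1.29. The 6 T-cell markers summed to 157 CPM in pBIC B cells and 90.7 CPM in pBIC10 B cells, and their part in the Il27ra and Ifng values was not tested. Of 5 surface genes 2 were higher in pBIC10 and 1 in pBIC, and Pdcd1, the PD-1 gene, went from 1.49 CPM to 18.2 CPM. Of 5 cytokines 2 were higher in each library, with Ifng at 4.53 CPM in pBIC beside 1.03 CPM in pBIC10. Il4 was at 0.538 CPM in pBIC B cells and 10.3 CPM in pBIC10 B cells, where the 3 mast-cell and basophil markers summed to 0.465 CPM and 9.20 CPM, and their part in the Il4 value was not tested.

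In macrophages, of the 15 further factors, 9 were higher in pBIC and 1 in pBIC10, and of 5 surface genes with enough UMIs 4 were higher in pBIC, beside 30.5% and 9.23% of all genes. Il27ra stood at 17.6 CPM and 1.77 CPM, Ets1 at 51.2 CPM and 10.6 CPM, Ifng at 30.6 CPM and 5.43 CPM and Lag3 at 15.7 CPM and 4.43 CPM. The 6 T-cell marker genes stood at a summed 363 CPM and 104 CPM in the same cells, and their part in these values was not tested. Egr2, a factor gene of macrophages and T cells alike, went the other way, at 8.40 CPM and 21.3 CPM, as did Il2ra at 0.828 CPM and 3.57 CPM. In neutrophils 7 of 14 further factors were higher in pBIC, beside 16.3% of all genes, and 2 in pBIC10, beside 18.4%. The T-cell markers stood at 509 CPM and 288 CPM there. Of the 6 relatives and partners of Batf, 3 were higher in pBIC10 neutrophils and 0 in pBIC, beside 18.4% of all genes, with Irf8 at 61.2 CPM and 152 CPM. Macrophage markers in neutrophils summed to 522 CPM in pBIC and 1077 CPM in pBIC10, mast-cell and basophil markers to 0 and 40.4 CPM, and 54 and 204 cells met both gates. Macrophages held Irf8 at 179 CPM and 212 CPM, and the part of these cells in the neutrophil values was not tested.

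The class profile of Il10 was compared with that of every other gene over 10 points, the 4 gates and erythroid cells in each library. The 5 genes with the closest profile were Lef1, Insrr, Zfp382, Nsg2 and Osbpl5, with r from 0.96 to 0.97 on log2(CPM + 1). Maf reached 0.70 (rank 891 of 11899), Bhlhe40 0.52, Batf 0.49 and Ahr 0.08. The points share 2 libraries and the depth of their classes, so these values are a description.

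Co-detection was then read cell by cell. For each regulator the share of cells with an Il10 UMI was taken among cells with and among cells without a UMI of the regulator, after thinning to 2000 UMIs so that depth was equal. In pBIC T cells, 9.46% (8.34 to 10.7) of 2505 cells with Maf held Il10, against 3.81% (3.30 to 4.37) of 5171 cells without it, a ratio of 2.48. In pBIC10 T cells the shares were 8.83% (6.56 to 11.6) of 532 cells and 3.74% (3.07 to 4.51), a ratio of 2.36. Maf was thus found with Il10 at nearly the same ratio in both libraries although its own level differed 3.57-fold.

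Batf gave 8.04% (6.93 to 9.27) against 4.72% (4.18 to 5.32) in pBIC, a ratio of 1.70, and 7.69% (6.17 to 9.44) against 3.05% (2.38 to 3.85) in pBIC10, a ratio of 2.52. At a depth of 5000 UMIs the Batf ratios were 1.61 and 1.59, so the wider pBIC10 value was not kept there. Bhlhe40 gave 6.57% (5.69 to 7.53) against 5.10% (4.49 to 5.76) in pBIC and 4.66% (3.71 to 5.77) against 4.43% (3.48 to 5.55) in pBIC10, ratios of 1.29 and 1.05 with overlapping intervals in both. At a depth of 5000 UMIs, again equal in all cells, the Bhlhe40 ratios were 1.35 in pBIC and 1.47 in pBIC10. The pBIC shares there were 11.3% (10.2 to 12.3) with Bhlhe40 against 8.31% (7.13 to 9.61) without it, which did not overlap. Without thinning the Bhlhe40 ratios were 1.56 and 1.92. The Bhlhe40 value thus moved with the depth, also between settings where depth was equal. Ahr was too sparse to read in T cells, since only 84 pBIC and 33 pBIC10 cells held it after thinning and 4 and 5 of these held Il10.

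Over all genes found in 2% to 98% of thinned T cells, a ratio of at least 1.5 was reached by 3.2% of 7721 genes in pBIC and by 9.08% of 7448 genes in pBIC10. Maf and Batf were past it in both libraries, Bhlhe40 in neither. Maf ranked 15 in pBIC and 45 in pBIC10, Batf 117 and 35, and Bhlhe40 819 and 2788. By the lower of the 2 ratios, over 6864 genes measured in both, the leading genes were Ccl3 (3.65), a chemokine gene, the activation-induced nuclear receptor genes Nr4a2 (3.60) and Nr4a1 (3.49), Nfkbid (3.30), an atypical I-kappa-B gene, and Ifng (3.29). Maf stood at position 13, Batf at 40 and Bhlhe40 at 1202 in that order.

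The Maf ratio held inside the T-cell subsets with enough cells. It was 2.48 in CD8 cells and 2.34 in CD4 cells of pBIC and 2.46 in CD8 cells of pBIC10. The Batf ratio was 1.96 in pBIC CD8 cells and 2.46 in pBIC10 CD8 cells. In pBIC CD4 cells it was not settled, at 0.76 after thinning to 2000 UMIs, 1.07 at 5000 UMIs and 1.93 without thinning. The pBIC10 CD4 set held 8 Il10-positive cells and the Foxp3 sets 4 and 6, too few to read.

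**Figure D1:**
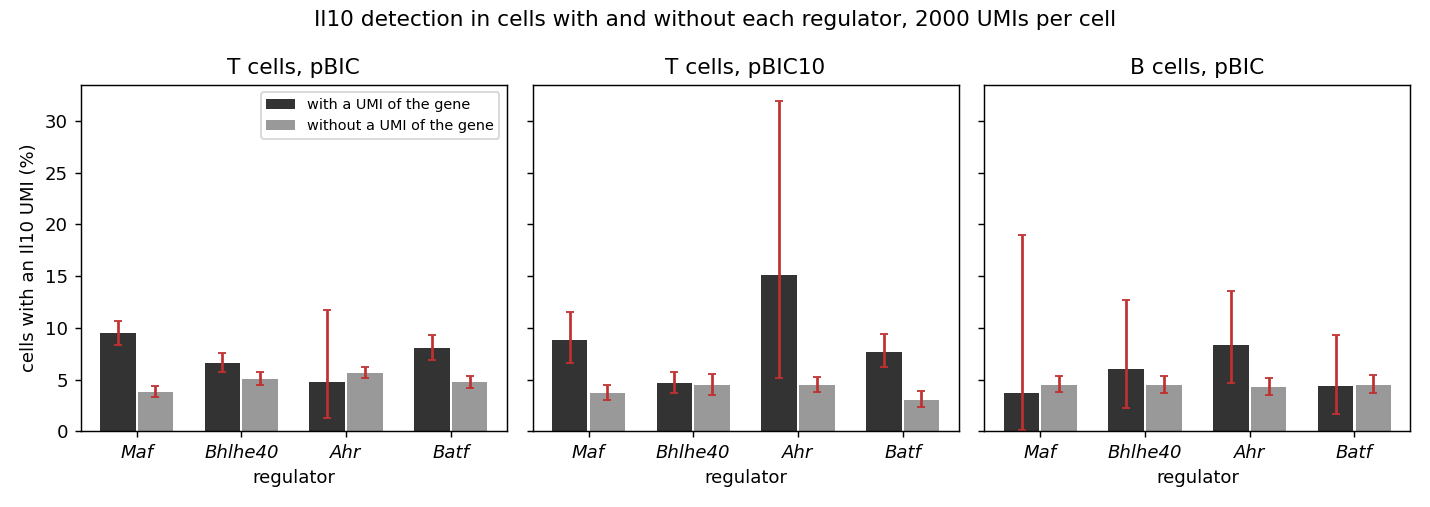
Share of cells with an Il10 UMI, in percent, among cells with (dark bars) and without (light bars) a UMI of each regulator after thinning to 2000 UMIs, for T cells of both libraries and B cells of pBIC; red bars are exact binomial 95% intervals. The bars for Maf are apart in both T-cell panels (9.46% against 3.81% and 8.83% against 3.74%), and those for Bhlhe40 are not apart beyond their intervals.

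The Il10 share was higher the more of the 4 regulators a cell held. In pBIC, 2.71% (2.10 to 3.44) of 2433 T cells with none of the 4 regulators held Il10, 5.56% of those with 1, 8.59% of those with 2 and 12.6% (9.46 to 16.4) of the 380 with 3 or more. In pBIC10 the shares were 2.55% (1.66 to 3.75), 3.95%, 6.49% and 15.5% (9.73 to 22.9), the last from 129 cells. Cells with both Maf and Batf stood at 11.4% (9.29 to 13.9) in pBIC and 14.4% (9.96 to 19.7) in pBIC10, against 2.98% and 2.72% of those with neither. Maf without Batf gave 8.57% (7.29 to 9.99) and 5.06% (2.92 to 8.09), and Batf without Maf 6.12% (4.91 to 7.52) and 6.02% (4.53 to 7.82). Cells with Bhlhe40 alone, at 4.30% (3.43 to 5.31) and 3.87% (2.92 to 5.001), overlapped the cells with neither Maf nor Bhlhe40, at 3.52% (2.92 to 4.21) and 3.61% (2.69 to 4.73). The regulators were also found together with each other, Batf in 31.1% of Maf-positive and 26.6% of Maf-negative T cells of pBIC, and in 40.6% and 30.8% in pBIC10.

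Il10 detection also went with the number of regulator UMIs in a cell. At 5000 UMIs per cell, 6.18% (5.32 to 7.12) of pBIC T cells with 0 Maf UMIs held Il10, 11.98% of those with 1, 12.4% with 2 and 19.4% (16.8 to 22.2) with 3 or more. In pBIC10 the shares were 6.88% (5.77 to 8.14), 16.1%, 19.0% and 21.7% (12.7 to 33.3). For Batf they were 7.72%, 9.60%, 13.5% and 20.0% (16.6 to 23.7) in pBIC, and 6.96%, 8.12%, 9.17% and 21.2% (16.5 to 26.5) in pBIC10. Bhlhe40 reached 15.5% (13.4 to 17.8) at 3 or more UMIs from 8.31% (7.13 to 9.61) at 0 in pBIC, while in pBIC10 it went from 6.72% (4.64 to 9.36) to 9.40% (7.46 to 11.6), intervals that overlapped.

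**Figure D2:**
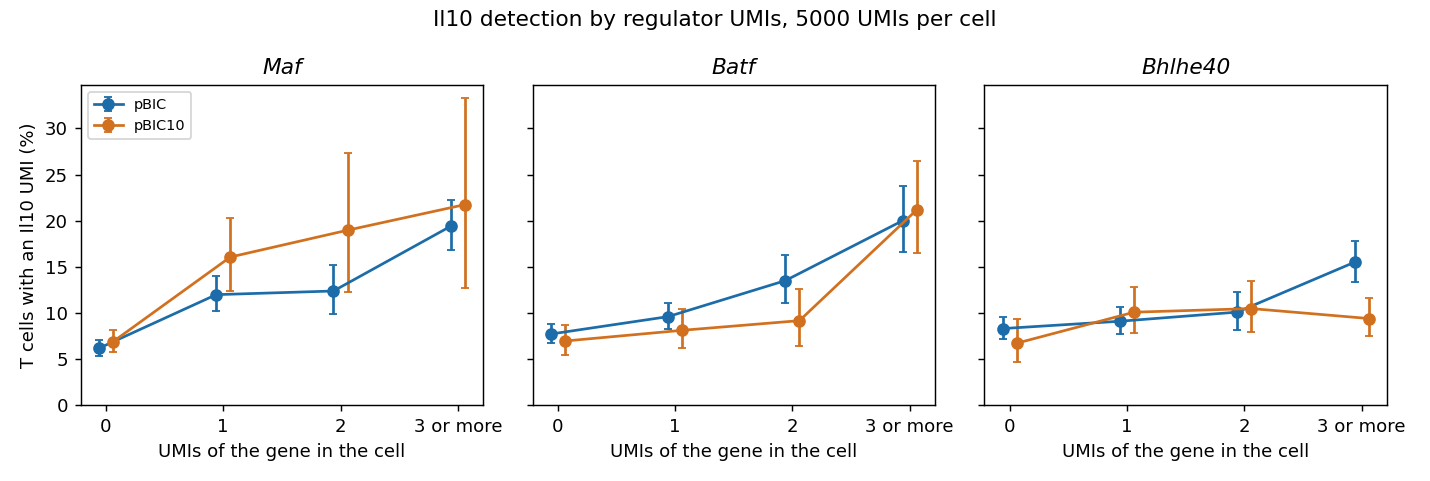
Share of T cells with an Il10 UMI, in percent, by the number of Maf, Batf or Bhlhe40 UMIs in the cell, each cell thinned to 5000 UMIs; blue is pBIC, orange is pBIC10, and bars are exact binomial 95% intervals. Maf and Batf climb in both libraries to about 20% at 3 or more UMIs (19.4% and 21.7% for Maf). Bhlhe40 goes from 8.31% at 0 UMIs to 15.5% at 3 or more in pBIC. In pBIC10 it goes from 6.72% to 9.40%, with overlapping intervals.

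B cells allowed this reading only in pBIC, where 119 thinned cells held Il10, against 1 in pBIC10. There Ahr had the highest ratio of the 4, with 8.33% (4.63 to 13.6) of 168 Ahr-positive B cells against 4.24% (3.48 to 5.11) of the rest, a ratio of 1.96 with overlapping intervals. At 5000 UMIs the shares were 18.0% (14.1 to 22.3) and 11.04% (9.68 to 12.5), which did not overlap. A ratio of at least 1.5 was reached by 14.1% of 7578 genes in these cells, and Ahr ranked 254. Bhlhe40 gave 1.36 and Batf 0.97, and only 27 B cells held Maf. Among B cells with the leading kappa segment the order was Bhlhe40 at 2.22, from 6 of 57 cells, and Ahr at 1.91, from 11 of 124. Macrophages had 9 and 5 Il10-positive cells after thinning and were not read.

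T-cell clonotypes, groups of cells with the same receptor, gave a second view of Maf and Il10. In pBIC 43 clonotypes with at least 30 T cells held 2822 cells, 37 of them mostly CD8 and 6 mostly CD4, and in pBIC10 6 clonotypes held 374 cells, all mostly CD8. Il10 in the pBIC clonotypes ran from 0 to 217 CPM with a median of 31.4 CPM. The 2 highest, clonotype6 at 217 CPM (190.1 to 246) and clonotype10 at 176 CPM (152 to 204), used the same beta-chain segment, TRBV13-3, as did clonotype4 at 68.0 CPM. In 4 clonotypes no Il10 UMI was found: clonotype20 (46 cells, which at 3 counts allows a share of cells with a UMI of up to 6.52%), clonotype26 and clonotype28 (41 cells each, up to 7.32%) and clonotype39 (31 cells, up to 9.68%). The beta-chain CDR3 sequences of these 7 are shown because they identify the highest clonotypes, 1 more with their segment, and those without Il10. They come from the deposited contig tables, 5′ to 3′, and capitals mark, in the TRBV13-3 clonotypes, the bases after the first 15, which all 3 share.
pBIC clonotype6: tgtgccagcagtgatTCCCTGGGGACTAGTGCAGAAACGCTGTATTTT
pBIC clonotype10: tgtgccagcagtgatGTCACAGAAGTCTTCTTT
pBIC clonotype4: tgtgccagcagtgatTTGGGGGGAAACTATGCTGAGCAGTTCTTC
pBIC clonotype20: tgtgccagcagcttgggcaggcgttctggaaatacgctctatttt
pBIC clonotype26: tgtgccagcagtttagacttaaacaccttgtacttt
pBIC clonotype28: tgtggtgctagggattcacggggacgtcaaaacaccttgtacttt
pBIC clonotype39: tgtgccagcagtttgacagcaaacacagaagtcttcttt

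The CDR3 of clonotype10 was 33 bases long and that of clonotype6 48 bases, with the joining segments TRBJ1-1 and TRBJ2-3. In the 282 pBIC T cells with TRBV13-3 outside the large clonotypes Il10 stood at 38.5 CPM (30.95 to 47.4), close to the 39.5 CPM of all 4968 T cells outside them and at rank 8 of 19 segments. In 154 pBIC10 T cells with TRBV13-3 it stood at 18.7 CPM (12.7 to 26.6), against 25.6 CPM (23.9 to 27.4) of T cells outside large clonotypes there. In the 2 high clonotypes Il10 was spread over many cells, with 34 of 103 and 39 of 85 cells positive, though 1 cell held 33.3% of the Il10 UMIs of clonotype6 and 1 cell 27.5% of those of clonotype10.

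Maf went with Il10 across the clonotypes. The 4 pBIC clonotypes without Il10 had Maf at 30.1, 46.8, 92.8 and 96.7 CPM, all below the clonotype median of 190 CPM, while clonotype6 and clonotype10 had 422 CPM (384 to 462) and 368 CPM (332 to 407). Over the 43 clonotypes, on log2(CPM + 1), r was 0.69 and rho 0.63 for Maf, and r was 0.68 without the 2 clonotypes farthest from the median Maf level. For Batf r was 0.26 and rho 0.33, for Bhlhe40 0.06 and 0.09, and for Ahr -0.16 and -0.10. With the top Il10 cell of each clonotype left out, r for Maf was 0.71. Exceptions were plain: clonotype36 had the highest Maf, 575 CPM, with Il10 at 56.6 CPM, and clonotype16 had Il10 at 106 CPM with Maf at 134 CPM, where 1 cell held 50.6% of its Il10 UMIs. In pBIC10 the 6 clonotypes ran from 20.2 to 105 CPM of Il10 and from 58.8 to 178 CPM of Maf. There r was 0.70 with all cells and 0.39 without the top cell of each. The clonotypes of a library share the mouse, the library and its depth, so these values carry no test. No correlation over all genes stands beside them, so how rare such an r is cannot be read here.

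**Figure D3:**
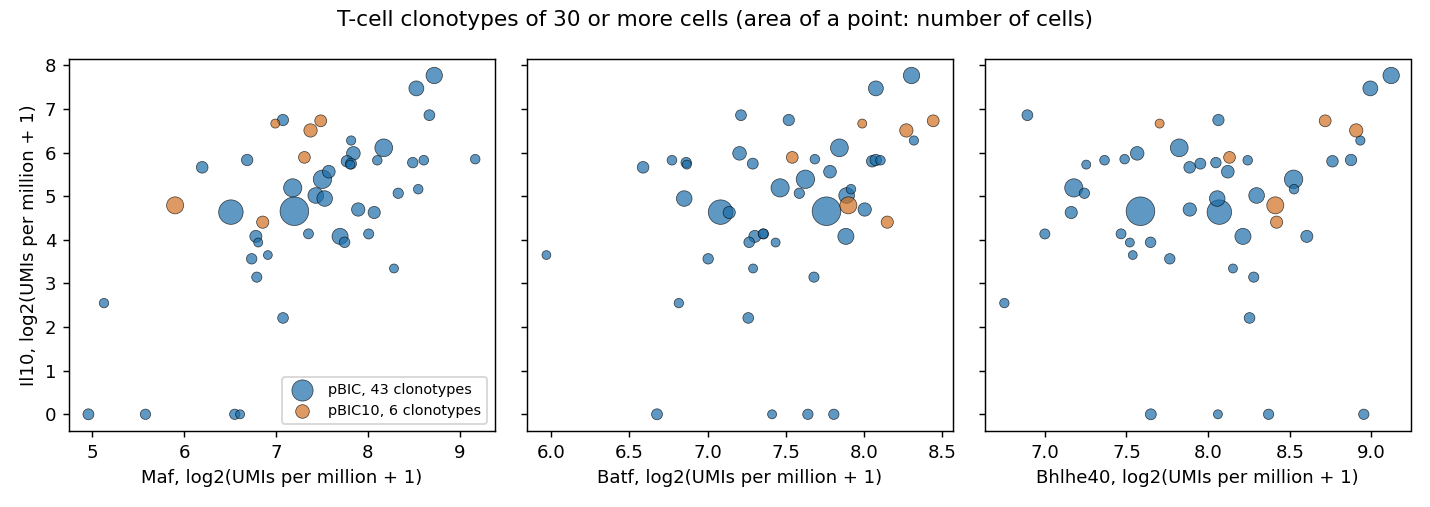
Il10 level against Maf, Batf and Bhlhe40 level, each as log2(CPM + 1), in T-cell clonotypes with at least 30 cells; blue points are the 43 pBIC clonotypes, orange points the 6 pBIC10 clonotypes, and point area is proportional to the number of cells. Points climb from lower left to upper right for Maf (r 0.69 in pBIC) and scatter for Bhlhe40 (r 0.06), and the 4 points at 0 are the clonotypes without an Il10 UMI.

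The co-detection was seen inside clonotypes as well. With each cell compared only with cells of its own clonotype, the Maf ratio was 1.77 in pBIC and 3.17 in pBIC10, beside 2.16 and 3.41 when the same cells were pooled. The Batf ratios were 2.02 and 2.35, and Batf-positive cells had the higher Il10 share in 26 pBIC clonotypes and the lower in 8, and in 6 of 6 pBIC10 clonotypes. For Maf the counts were 22 and 12 in pBIC and 5 and 1 in pBIC10, and for Bhlhe40 18 and 16, and 2 and 4, with ratios of 1.20 and 0.67.

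Il10 and Maf also differed with the size of the clonotype. T cells whose receptor was seen once had the lowest Il10 in both libraries, 25.7 CPM (22.6 to 29.2) in pBIC against 18.6 CPM (16.4 to 21.0) in pBIC10. In pBIC it was 38.0 CPM in clonotypes of 2 to 9 cells, 49.4 CPM at 10 to 29 and 47.8 CPM (45.3 to 50.5) at 30 or more. In pBIC10 the values were 31.4, 27.2 and 53.1 CPM (46.0 to 61.1), so that at 30 or more cells Il10 was 1.11-fold higher in pBIC10. That level rested on few cells, since 1 cell held 70% of the Il10 UMIs of pBIC10 clonotype4 and 1 cell 50% of those of clonotype5. The thinned share of positive cells was 5.43% (3.35 to 8.27) there and 6.88% (4.89 to 9.36) in clonotypes of 10 to 29 cells. Maf in pBIC10 was 29.8 CPM (27.0 to 32.9) in single cells and 57.7, 79.1 and 116 CPM (106 to 128) in the larger sizes, each above the one before beyond its interval. In pBIC it was 161, 202, 236 and 197 CPM. Batf was likewise lowest in single cells, 142 CPM in pBIC against 174 CPM in pBIC10, and stood at 198 CPM and 258 CPM at 30 or more, which in pBIC overlapped the 192 CPM at 10 to 29. Bhlhe40 went from 439 CPM (428 to 451) in single cells to 349 CPM (329.9 to 368) at 30 or more in pBIC10 and from 254 CPM to 280 CPM in pBIC. Between pBIC and pBIC10 the single cells differed 5.40-fold in Maf and the clonotypes of 30 or more cells 1.69-fold, and that difference between the sizes was not tested.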

How the data were processed

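The deposited values are UMI counts per gene and cell, made by the authors with Cell Ranger, for which the submitters' processing notes give version 3.0.1 and GRCm39 and the matrix header gives 5.0.1. Receptor chains came from the deposited contig tables. The 5 genes and all gene lists were chosen with earlier results of these data known. Cells with at least 200 genes and at most 10% mitochondrial UMIs were kept (17871 in pBIC, 14667 in pBIC10). Doublets were called with Scrublet in scanpy 1.11.5 at a score of 0.3 in both libraries, because the automatic threshold marked 0 cells in pBIC and 367 in pBIC10, and 496 and 396 cells were removed. The libraries held 166941618 and 147884282 UMIs.

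Levels are class sums with exact Poisson intervals, shares have exact Clopper-Pearson intervals (a share of 0 is given with a limit of 3 counts), and ratios between libraries exact conditional binomial intervals, computed with Python 3.11.15, numpy 2.4.6, scipy 1.17.1 and pandas 2.3.3. Cells with fewer than 2000 UMIs were left out of thinned values (114 and 62 T cells, 187 and 79 B cells). Ratios inside clonotypes are Mantel-Haenszel ratios. TMM factors came from edgeR 4.0.16 in R 4.3.3, used for scaling only. Genes of a list were named by a rule of size, up to 2 per direction and class with at least 50 UMIs and a 1.5-fold gap, and by rank for profile and co-detection. The scripts were tested on simulated data. The alternatives were other thinning depths, gates, filters, scalings, doublets kept, shared barcodes removed and another random draw. A search for factor motifs at the Il10 promoter is not analysed here. A Maf relative and a clonotype are not reported here.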

Additional observations from a re-analysis of the deposited data

Results flagged for a closer look

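Bhlhe40 went in opposite directions in B cells and macrophages. Its log2 ratio of pBIC10 to pBIC was 1.37 in B cells and -0.12 in macrophages, a difference of 1.48. The macrophage ratio was 0.21 with TMM factors and 0.23 with median-of-ratios factors, so the opposite directions were not kept under those scalings.

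Ahr was higher in pBIC10 in neutrophils, with a log2 ratio of 0.61, and lower in B cells, with -0.77, a difference of 1.38. The neutrophil ratio had an interval of 0.06 to 1.21, with 31 UMIs in pBIC. The part of macrophage RNA in it was not tested. Batf was higher in pBIC10 in B cells, with 2.83, and lower in macrophages, with -0.47, a difference of 3.30. The macrophage Batf ratio was -0.14 with TMM factors and -0.12 with median-of-ratios factors, so little of the macrophage gap was kept under those scalings. With 1 library per genotype, none of these 3 differences was tested.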

How the results depend on the processing

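No paired analysis was possible because each genotype is 1 mouse with 1 library and no result comes from a test between samples. Of 96 alternatives, 77 left the value within its limits (its counting interval, or 1.5 times for the 4 shares of all genes), 18 moved it beyond and 1 turned a ratio that was past 1.5. The Ahr ratio in pBIC, 0.84 from 4 cells, also crossed 1 within its wide interval, at 1.13 with 5000 UMIs, 1.55 without thinning and 1.07 with another random draw. The log2 ratio of Il10 in B cells was -4.76 when per-cell CPM were averaged, -6.86 in cells with at least 10 UMIs of the leading kappa segment and -2.77 in the others. In T cells it was -0.35 with that average, -0.49 with median-of-ratios factors and -0.32 without the 1% of cells with most Il10. In macrophages it was -3.45 in cells meeting exactly 1 gate and -3.27 in cells without Cd3e, Cd79a or Cd79b.

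With the regulator at 2 or more UMIs, the pBIC ratios were 3.20 for Maf, 1.5002 for Bhlhe40, 2.52 for Batf and 0 for Ahr, and the pBIC10 ratios 3.20 for Batf and 0 for Ahr. Both Ahr values of 0 rest on 1 T cell with 2 or more Ahr UMIs and say nothing about direction. The pBIC10 Ahr ratio was 3.41, from 5 cells, and 1.83 with another random draw. Without thinning, Bhlhe40 gave 1.56 in pBIC and 1.92 in pBIC10, and Batf 2.06 in pBIC. At 5000 UMIs, Bhlhe40 gave 1.47 and Batf 1.59 in pBIC10. The Maf ratio ran from 2.35 to 3.20 in pBIC and from 2.07 to 2.64 in pBIC10. The cause of these moves was not tested. The settings that split B cells by kappa segment, drop T-cell or B-cell UMIs, remove the highest cells, remove shared barcodes or redraw were chosen after seeing the data. Few counts limit the reading of Ahr in thinned T cells and of Il10 in pBIC10 B cells, macrophages and neutrophils. Those pBIC10 classes held 21, 50 and 23 Il10 UMIs. Their median depth was 15906, 11868 and 3082 UMIs, against 12836, 9400 and 3771 UMIs in pBIC.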
